A study of Homo sapiens with 40 samples.

Results

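The S100 genes encode small calcium-binding proteins, and 10 of them were followed here across all groups of the study: S100A2, S100A4, S100A6, S100A7, S100A8, S100A9, S100A10, S100A11, S100A14 and S100P. They are the rows of the count table that carry exactly these names, 10 of 44584 names. The set was chosen by a measured value, the higher S100A9 level with heregulin than with vehicle in BT474R, so heregulin against vehicle in BT474R is described below by values and counts, with no p for any of the 10 genes. S100A9 gets no p in any comparison that holds its BT474R heregulin or vehicle libraries. The other 9 genes were tested in those comparisons, which share libraries with the one that chose the set. All 10 genes passed the filter on low counts in both lines, although S100A2 and S100A7 did so with few reads.

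S100 proteins fold around a pair of calcium-binding EF hands, mostly work as dimers, and change shape on calcium binding so that they can grip a partner protein. Inside the cell the partners include annexins, non-muscle myosin and ezrin. Outside it several S100 proteins act as alarm signals on the receptor RAGE or on TLR4. In the breast epithelium S100A7, S100A8 and S100A9 are best known from inflamed or transformed tissue, and most of the family lies in the epidermal differentiation cluster of chromosome 1.

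BT474 is a breast cancer cell line with amplified HER2 that is sensitive to trastuzumab. BT474R is a resistant derivative, a single clone grown out of BT474 under that antibody, so it stands for 1 resistant line only. Cells of both lines were serum starved and then sampled untreated (T0) or after 1 h, 12 h and 24 h with EGF, with HRG (heregulin) or with water as the vehicle, all in starvation medium. EGF is the ligand of HER1, and HRG that of HER3 and HER4, which pair with HER2. Each of the 20 groups had 2 libraries, 40 in all. Treatments were made in duplicate, and the sources used here do not say whether the duplicates were independent experiments, so p-values measure only the spread between these samples, which may be technical.

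Libraries held between 16794594 and 33387936 counted reads (median 24224094), and 3 reads corresponded to between 0.0929 and 0.180 CPM, the usual measure of reads relative to library size, here after TMM scaling. Replicates differed by more than counting noise in every group, most in the BT474R group given HRG for 24 h. All 8 luminal markers exceeded a mean of 1 CPM in both lines, with ERBB2 at 7462 CPM in BT474 and 8925 CPM in BT474R. GATA3, a luminal transcription factor, was at 444 CPM in BT474 and at 35.4 CPM in BT474R. Differences below are log2 fold changes with their standard errors (SE), tested with edgeR's quasi-likelihood test, and a gene was called where its p, adjusted by Benjamini-Hochberg across every gene in the fit, was under 0.05. The bulk RNA cannot tell fewer cells making a transcript from less transcript per cell.

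Of the 10 genes, 9 lie on chromosome 1, among 16 S100 genes there, and S100P lies on chromosome 4. Promoter sequences of RefSeq (GRCh38.p14) matched all 10 genes, with 13 start sites in all, and 250 bases before each start were searched on both strands. A gene was counted if any of its starts held a match, whereas the shares of all promoters count each start by itself. The TATA box letters TATAAA were found for 5 of the 10 genes (S100A4, S100A7, S100A8, S100A9 and S100P), against 10.7% of 35116 promoters. They began 29 bases before the start in S100A9 and at the second of 3 starts of S100A8, and 28 bases before it in S100P and S100A7. The C/EBP-like letters TTNNGNAA were found in 5 of 10 (S100A6, S100A8, S100A9, S100A11 and S100P), against 33.2% of promoters. The AP-1 letters TGANTCA were found in S100A2 alone, against 6.57%, and the STAT letters TTCNNNGAA in none, against 6.57%. Shown are the windows of 3 genes that were higher with EGF than with vehicle in BT474R, S100A9 and S100P with a TATA box and S100A10 without any of these letters, and the last 30 bases before the starts of S100A8 and S100A7. They run 5′ to 3′ on the strand of the gene, and capitals mark TATAAA and TTNNGNAA on either strand.
S100A9, chr1:153357604-153357853, plus strand: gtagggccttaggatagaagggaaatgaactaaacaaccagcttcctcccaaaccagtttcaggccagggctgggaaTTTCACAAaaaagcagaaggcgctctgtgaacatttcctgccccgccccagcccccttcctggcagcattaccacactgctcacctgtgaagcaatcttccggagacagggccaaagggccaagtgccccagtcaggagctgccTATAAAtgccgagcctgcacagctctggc
S100P, chr4:6693628-6693877, plus strand: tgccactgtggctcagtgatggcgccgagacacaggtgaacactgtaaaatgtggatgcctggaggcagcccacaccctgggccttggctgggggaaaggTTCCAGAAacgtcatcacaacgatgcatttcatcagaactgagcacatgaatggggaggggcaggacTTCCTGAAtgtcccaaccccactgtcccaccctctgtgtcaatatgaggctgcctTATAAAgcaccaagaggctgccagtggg
S100A10, chr1:151993860-151994109, minus strand: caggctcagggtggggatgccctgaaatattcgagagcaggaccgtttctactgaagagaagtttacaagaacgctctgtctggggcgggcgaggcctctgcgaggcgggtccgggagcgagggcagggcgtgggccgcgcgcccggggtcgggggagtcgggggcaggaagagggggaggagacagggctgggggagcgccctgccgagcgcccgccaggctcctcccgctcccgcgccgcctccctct
S100A8, second start, chr1:153391074-153391103, minus strand: cTATAAAaaggagctgcctctcagccctgc
S100A7, chr1:153460652-153460681, minus strand: ctTATAAAggactgctctttgtccaaacac

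The genes differed widely in level. Per kilobase of exon, BT474 libraries had a median of 289.8 CPM of S100A11, 262 of S100A14, 155 of S100A6 and 108 of S100A10. S100A4 (15.5) and S100P (14.7) followed, and S100A9 (0.757), S100A8 (0.652), S100A2 (0.306) and S100A7 (0.118) were scarce. In BT474R the order of these medians was S100A6 (413), S100A14 (321), S100A11 (281), S100P (105), S100A4 (78.2), S100A10 (45.4), S100A9 (11.0), S100A8 (2.98), S100A2 (0.197) and S100A7 (0.159). Over the 20 libraries of a line, the ranges of neighbours in this order overlapped except for S100A14 over S100A6, S100A10 over S100A4 and S100P over S100A9 in BT474, and S100A11 over S100P and S100A8 over S100A2 in BT474R. By this measure S100P, a member first cloned from placenta, stood below S100A4 in BT474 and above it in BT474R, in both lines with overlapping ranges. Its place above S100A4 depends on the exon lengths used, 471 bases against 946 with all annotated exons merged. In CPM the median of S100P was the lower in both lines (6.94 against 14.7 in BT474, 49.6 against 74.0 in BT474R). S100A9 and S100A8 in BT474 also changed places, with CPM medians of 0.434 and 0.581.

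At T0, BT474R had more RNA of both calprotectin subunits, of S100P and of S100A4 and S100A6, and less of S100A10. Of the 10 genes, 6 were called higher and 2 lower, where 46.9% of 24641 tested genes were called in either direction, 25.1% higher and 21.7% lower. S100A9 was at 0.271 and 0.538 CPM in BT474 and at 6.12 and 5.38 CPM in BT474R. The groups were apart by a log2 of 3.86 (SE 0.25, edgeR adjusted p = 5.4e-16). S100A8, its partner in calprotectin, was at 0.503 and 0.293 CPM in BT474 and at 4.02 and 2.76 CPM in BT474R, a log2 difference of 3.01 (SE 0.31). S100P, a ligand of RAGE that also binds ezrin, was at 3.56 and 2.74 CPM against 41.3 and 40.8 CPM, a log2 difference of 3.68 (SE 0.14, edgeR adjusted p = 1.8e-22).

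The intracellular members differed less, and not all in the same direction. S100A4, which binds non-muscle myosin and is known for its part in cell motility, was at 19.99 and 19.95 CPM in BT474 and at 68.2 and 71.2 CPM in BT474R at T0 (log2 difference 1.80, SE 0.10). S100A6, or calcyclin, was at 161 and 151 CPM against 358 and 364 CPM (1.21, SE 0.05). S100A10, the annexin A2 partner that has lost calcium binding, went the other way, with 108 and 103 CPM in BT474 and 29.2 and 27.5 CPM in BT474R (-1.90, SE 0.06, edgeR adjusted p = 5.8e-24). ANXA2 itself was also lower in BT474R at T0, at a mean of 60.1 CPM against 192 CPM (-1.68, SE 0.07). S100A14 was slightly higher in BT474R (0.23, SE 0.04) and S100A11 slightly lower (-0.13, SE 0.05). Without BT474 T0 replicate 1 the S100A11 difference was -0.10 with an edgeR adjusted p of 0.16, and without replicate 2 it was -0.22. S100A2, with 8 and 8 reads against 1 and 6, was not called (-0.90, SE 0.67), nor was S100A7, which had at most 1 read in any T0 library.

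**Figure D1:**
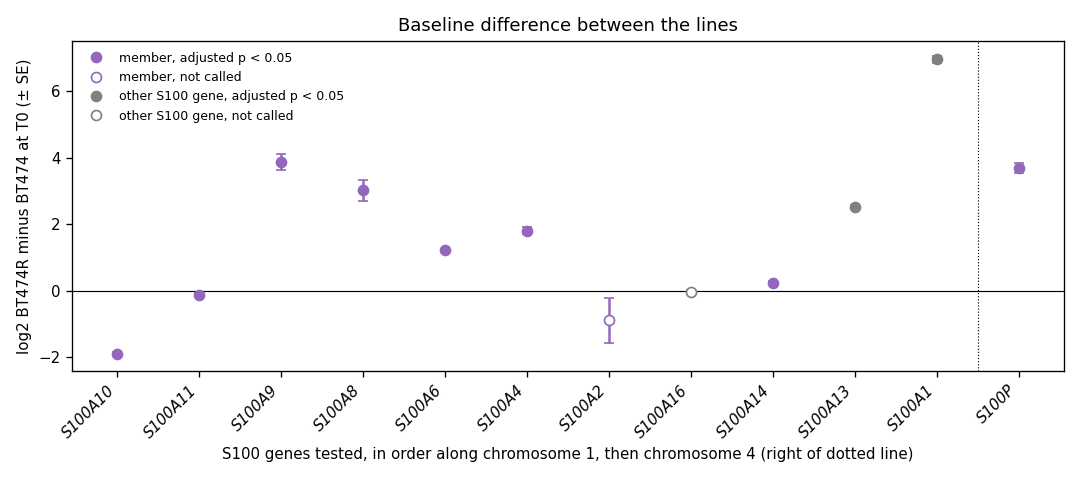
Log2 difference between BT474R and BT474 at T0 (vertical axis, with SE bars, 2 libraries per line) for the S100 genes tested with over 3 reads per library in at least 1 line, in their order along chromosome 1 and then S100P on chromosome 4. Purple points are the genes described here other than S100A7, which had too few reads to be shown. Grey points are other S100 genes, and points are filled where adjusted p was under 0.05. S100A9 (3.86), S100A8 (3.01) and S100P (3.68) lie high, S100A10 (-1.90) lies below 0, and S100A1 (6.96) is the highest point.

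The neighbours of these genes did not all move with them. Of 11 other S100 genes listed, 10 were in the table and 6 could be tested between the lines. At T0, 2 of these were called higher in BT474R and none lower, where 25.1% of all genes were called higher and 21.7% lower. S100A1, a family member best known from heart and skeletal muscle, had a mean of 1.42 CPM in BT474 and 175 CPM in BT474R at T0 (log2 6.96, SE 0.11). S100A13 was higher by 2.51 (SE 0.06), and S100A16 had a difference of -0.05 (SE 0.06) that was not called.

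After 1 h of either ligand none of the 10 genes was called in either line by edgeR or by DESeq2. Of all genes tested, edgeR called 2.19% of 25146 in EGF-BT474, 2.77% in HRG-BT474, 0.457% of 24287 in EGF-BT474R and 0.169% in HRG-BT474R. At an unadjusted p under 0.05 edgeR gave 3 of the 10 genes in EGF-BT474 (10.5% of all genes), 3 in HRG-BT474 (12.1%), 0 in EGF-BT474R (5.65%) and 0 in HRG-BT474R (4.36%), and DESeq2 gave 2, 2, 0 and 0 of the 10. The largest log2 change at 1 h among members with reads in every library was S100A8 in HRG-BT474, at 1.06 (SE 0.51).

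At 12 h and 24 h the calls were nearly all upward. In EGF-BT474, 5 of 10 genes rose at 12 h, against 9.04% of all genes tested, and 5 at 24 h, against 9.71%. In HRG-BT474, 8 rose at 12 h, against 13.3%, and 7 rose and 1 fell at 24 h, against 12.5% and 11.6%. In EGF-BT474R, 7 of the 9 genes other than S100A9 rose at 12 h, against 6.85%, and 6 at 24 h, against 9.95%. In HRG-BT474R, the comparison that chose the set, 4 of 10 were called higher at 12 h, beside 2.38% of all genes, and 4 at 24 h, beside 1.89%, and nothing is read from these counts.

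Over the 10 genes the median log2 change was 0.59 in EGF-BT474 and 0.58 in HRG-BT474 at 12 h. The medians of all genes tested lay between -0.03 and 0.01 in the 12 ligand comparisons. In EGF-BT474R the median over the 10 genes was 0.68 at 12 h and 0.77 at 24 h, as a description, since it includes S100A9. Among the other 9 genes there, the middle value was that of S100A8, at 0.62 at 12 h and 0.66 at 24 h. In BT474 at 24 h S100A7 had 0 reads in both vehicle libraries. The medians there were 0.72 for EGF and 1.08 for HRG, and became 0.36 and 0.44 with S100A7 placed at the least fold its mean reads allow. EGF and HRG shared their vehicle libraries at each time point.

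**Figure D2:**
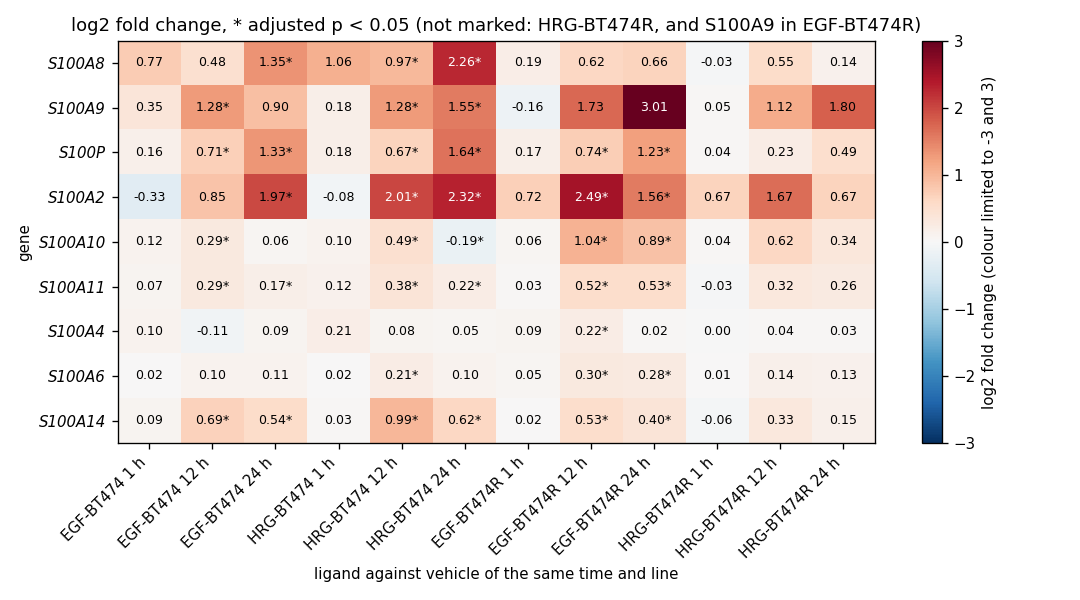
Log2 fold change of ligand against its matched vehicle (colour and printed value, colour limited to -3 and 3) for 9 of the 10 genes in rows and the 12 comparisons in columns. An asterisk marks adjusted p under 0.05, and the HRG-BT474R columns carry none because they chose the set, nor do those of S100A9 in EGF-BT474R, which share its vehicle libraries. No asterisk stands in the 1 h columns, and the deepest red is S100A9 in EGF-BT474R at 24 h (3.01). S100A7 is left out since some of its groups had 0 reads.

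S100A9, the larger calprotectin subunit, was highest of all groups in BT474R given EGF for 24 h. Vehicle libraries held 3.72 and 4.40 CPM at 12 h and 2.31 and 2.82 CPM at 24 h. With EGF it was at 13.4 and 13.8 CPM at 12 h and at 21.1 and 20.1 CPM at 24 h. All EGF libraries of these time points thus lay above every vehicle library, a log2 difference of 1.73 (SE 0.13) at 12 h and 3.01 (SE 0.14) at 24 h. These are descriptions, since the vehicle libraries also served in the comparison that chose the gene. With HRG it was at 9.30 and 8.72 CPM at 12 h and 9.31 and 8.25 CPM at 24 h, which is a log2 difference of 1.12 (SE 0.13) and 1.80 (SE 0.15) from vehicle, given here as the values that selected the set.

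In BT474 the same gene stayed near the detection limit, with 5 to 41 reads per library. Vehicle libraries were at 0.310 and 0.240 CPM at 12 h and at 0.612 and 0.342 CPM at 24 h. HRG libraries were at 0.734 and 0.660 CPM at 12 h and at 1.38 and 1.39 CPM at 24 h, and S100A9 rose by a log2 of 1.28 (SE 0.43) and 1.55 (SE 0.35, edgeR adjusted p = 0.00074). EGF libraries were at 0.881 and 0.480 CPM at 12 h (log2 1.28, SE 0.45, edgeR adjusted p = 0.045) and at 0.932 and 0.815 CPM at 24 h (0.90, SE 0.39, not called). Leaving out either library of vehicle or of HRG ended the HRG call at 12 h (edgeR adjusted p from 0.074 to 0.14), leaving out any of 3 libraries ended the EGF call at 12 h (0.78 without EGF replicate 1), as did a fit of only the libraries compared (adjusted p = 0.065), and without vehicle replicate 2 the HRG change at 24 h was 1.16 with an edgeR adjusted p of 0.054. DESeq2 did not call the HRG change at 12 h (adjusted p = 0.092).

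S100A8 was called with both ligands in BT474 and not with EGF in BT474R. In BT474 at 24 h it was at 0.470 and 0.304 CPM with vehicle, 0.970 and 0.996 CPM with EGF and 1.89 and 1.84 CPM with HRG. It rose by a log2 of 2.26 with HRG (SE 0.35, edgeR adjusted p = 3.7e-06) and of 1.35 with EGF (SE 0.40, edgeR adjusted p = 0.015), and by 0.97 (SE 0.35) with HRG at 12 h. In BT474R at 24 h it was at 1.422 and 1.505 CPM with vehicle, 2.14 and 2.48 CPM with EGF and 1.72 and 1.45 CPM with HRG. EGF there gave 0.66 (SE 0.23, edgeR adjusted p = 0.055, 95% interval from 0.20 to 1.12), just short of a call, and 0.62 at 12 h (edgeR adjusted p = 0.055), and HRG gave 0.14 (SE 0.25) at 24 h. The 12 h change with EGF in BT474R became called in some of the alternatives. Compared between the lines, the EGF effect on S100A8 was not called, at 0.13 (SE 0.44) at 12 h and -0.70 (SE 0.46) at 24 h. The EGF call in BT474 was lost without vehicle replicate 2 (1.04) or either EGF replicate and with DESeq2 (adjusted p = 0.069), and the HRG call at 12 h without any of its 4 libraries and with DESeq2 (adjusted p = 0.14).

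The balance of the 2 subunits is given as a description. In BT474R it holds the S100A9 reads of the vehicle and HRG libraries that served in choosing the set. BT474 libraries had between 0.545 and 2.00 reads of S100A8 per read of S100A9, with no more than 56 reads of either gene. In BT474R the ratio was 0.657 and 0.513 at T0 and 0.617 and 0.533 with vehicle at 24 h. It was 0.235 and 0.230 with EGF at 12 h, 0.101 and 0.124 with EGF at 24 h, and 0.185 and 0.176 with HRG at 24 h. The EGF libraries of 24 h held the lowest ratios of all 40 libraries. The ratios are of reads and not of molecules, since the transcripts differ in length.

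**Figure D3:**
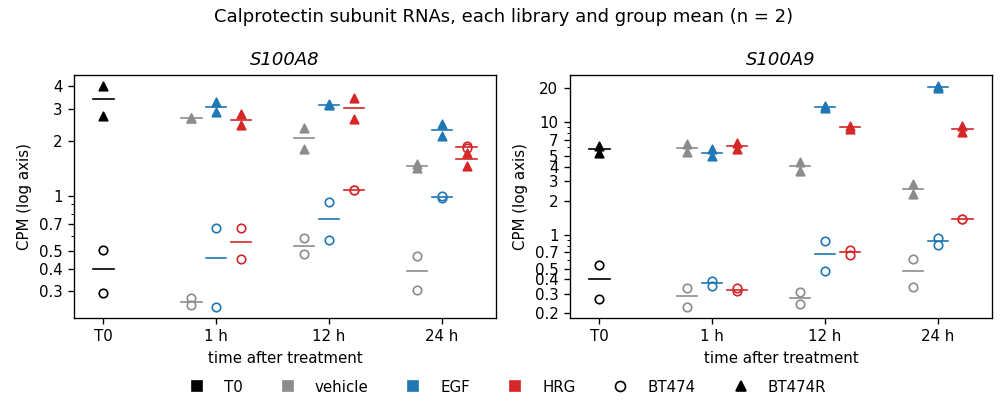
CPM (log axis) of S100A8 and S100A9 in each library by time point, with open circles for BT474, filled triangles for BT474R, colours for T0, vehicle, EGF and HRG, and short lines for the mean of 2 libraries. S100A9 in BT474R climbs to 21.1 and 20.1 CPM with EGF at 24 h while vehicle falls to 2.31 and 2.82 CPM. S100A8 in BT474 is highest with HRG at 24 h (1.89 and 1.84 CPM).

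**Figure D4:**
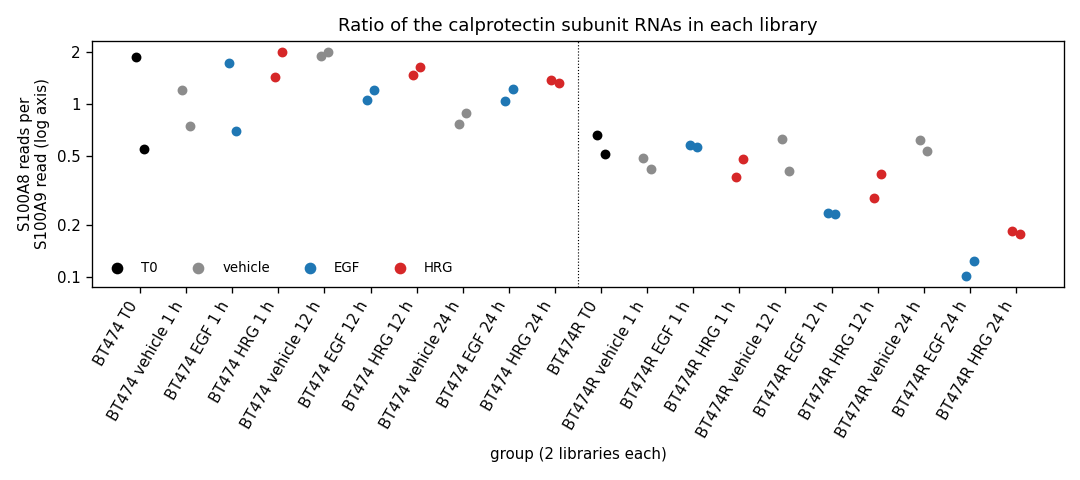
Reads of S100A8 per read of S100A9 (log axis) in each library, 2 points for each of the 20 groups, BT474 left and BT474R right of the dotted line. The BT474R points are at 0.657 and 0.513 at T0 and at 0.101 and 0.124 with EGF at 24 h, as a description.

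Because calprotectin is a major product of neutrophils and monocytes, 9 markers of myeloid cells were read beside it. Their summed level was between 2.01 and 4.75 CPM in BT474 and between 2.53 and 8.87 CPM in BT474R, where the EGF libraries of 24 h had 8.07 and 8.87 CPM, HRG 5.30 and 4.64 CPM and vehicle 3.54 and 4.33 CPM. Only CD68 and CSF3R had a mean over 1 CPM in BT474R, and only CD68 in BT474. TYROBP had 0 reads in all 40 libraries, PTPRC, CD14 and FCN1 had at most 4 reads in any library, and AIF1 at most 1. Of the 3 myeloid markers tested in BT474R, CD68 rose with EGF at 12 h (0.77, SE 0.23) and CD68 (1.36, SE 0.22) and CSF3R (1.26, SE 0.24) at 24 h, and none of the 5 tested in BT474 was called with a ligand. Their part in the S100A9 and S100A8 levels was not tested.

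Markers of basal or myoepithelial cells also moved, in groups where S100 genes rose and in others. Of 6 such markers, 4 rose in EGF-BT474R at 12 h (median log2 1.82, median of all genes -0.01), where 6.85% of all genes tested rose. At 24 h 1 rose there (0.68), where 9.95% of all genes did. In HRG-BT474 at 12 h 3 rose (1.00), against 13.3%, and in EGF-BT474 at 12 h 2 rose (1.21), against 9.04%. At 24 h in BT474, 2 rose and 1 fell with each ligand, where 9.71% of all genes rose with EGF and 12.5% with HRG. KRT17, a basal keratin, rose from a mean of 0.585 to 6.96 CPM in HRG-BT474 at 12 h and from 0.140 to 2.43 CPM in EGF-BT474R at 12 h. The summed level of the 6 markers was between 29.7 and 56.2 CPM in BT474 and between 31.8 and 103.6 CPM in BT474R, and no marker was at 0 in every library. Most of this sum was VIM, at 22.5 to 39.7 CPM in BT474 and 30.2 to 98.4 CPM in BT474R. KRT14 had at most 7 reads in any library, ACTA2 at most 5, and KRT5 at most 15 in BT474. The medians above thus rest in part on genes with few reads. The part of these markers in the S100 levels was not tested.

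S100P rose with both ligands in BT474 and with EGF in BT474R. In BT474 it was at 5.69 and 5.91 CPM with vehicle at 12 h and at 2.31 and 3.19 CPM at 24 h. HRG libraries were at 10.2 and 8.72 CPM and at 9.02 and 8.56 CPM, and EGF libraries at 9.91 and 9.31 CPM and at 7.42 and 6.61 CPM. At each of these times all ligand libraries lay above both vehicle libraries, and at 24 h the log2 change was 1.64 with HRG (SE 0.17, edgeR adjusted p = 5.0e-10) and 1.33 with EGF (SE 0.17, edgeR adjusted p = 2.9e-07). At 12 h it was 0.67 (SE 0.14) and 0.71 (SE 0.14), from a higher vehicle level than at 24 h.

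In BT474R, where S100P was higher from T0 on, vehicle was at 38.7 and 45.5 CPM at 12 h and 31.4 and 35.5 CPM at 24 h. EGF brought it to 70.5 and 70.8 CPM and to 75.5 and 80.8 CPM, a log2 change of 0.74 (SE 0.08) and 1.23 (SE 0.09, edgeR adjusted p = 9.5e-10). With HRG it was at 49.96 and 49.96 CPM at 12 h and 41.6 and 51.5 CPM at 24 h, a log2 difference of 0.23 (SE 0.08) and 0.49 (SE 0.09) from vehicle.

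S100A2, a mostly nuclear member, and S100A7, or psoriasin, were read thinly. S100A2 had 1 to 53 reads per library. It was highest with HRG for 12 h in BT474, with 31 and 53 reads (1.34 and 1.84 CPM) against 12 and 9 with vehicle, a log2 rise of 2.01 (SE 0.38, edgeR adjusted p = 8.0e-05), and HRG gave 2.32 (SE 0.53) at 24 h. EGF in BT474R gave 25 and 12 reads against 3 and 4 with vehicle at 12 h (2.49, SE 0.51, edgeR adjusted p = 0.0019) and 24 and 24 reads against 9 and 7 at 24 h (1.56, SE 0.42), and EGF in BT474 gave 1.97 (SE 0.57) at 24 h. Without EGF replicate 1 the 12 h change in BT474R was 2.01 (edgeR adjusted p = 0.071), the 24 h calls with EGF were lost without vehicle replicate 1 or EGF replicate 1 in BT474R and without replicate 2 of either group in BT474, and DESeq2 did not call that of 24 h in BT474R (adjusted p = 0.077).

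S100A7 never exceeded 8 reads in a library and had none in 8 of 20 BT474 libraries and 5 of 20 BT474R libraries. In BT474 at 24 h it had 0 and 0 reads with vehicle, 8 and 0 with EGF and 4 and 5 with HRG. The HRG mean of 0.170 CPM was 1.20-fold the level of 3 reads in a vehicle library (0.141 CPM). HRG replicate 1, at 0.135 CPM, lay under that level, and the counting error of 4 and 5 reads is not included, so this is no firm lower bound. The EGF mean gave a value of 1.06-fold that rested on replicate 1 alone, since replicate 2 had 0 reads like both vehicle libraries. The HRG difference was called (edgeR adjusted p = 0.043), but not when any of its 4 libraries was left out or with both lines in 1 fit (adjusted p = 0.053).

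The S100A10 response was clearest in BT474R. Vehicle libraries were at 39.2 and 42.2 CPM at 12 h and 49.6 and 51.6 CPM at 24 h. EGF libraries were at 87.9 and 79.5 CPM and at 91.4 and 96.2 CPM, a log2 rise of 1.04 (SE 0.07, edgeR adjusted p = 8.3e-10) and 0.89 (SE 0.07, edgeR adjusted p = 3.8e-09). With HRG it was at 64.6 and 62.5 CPM at 12 h and at 65.3 and 61.3 CPM at 24 h, between EGF and vehicle, with log2 differences of 0.62 (SE 0.07) and 0.34 (SE 0.07).

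In BT474 S100A10 rose briefly. Vehicle was at 119 and 118 CPM at 12 h, EGF at 146 and 148 CPM and HRG at 165 and 174 CPM, so that it rose by a log2 of 0.29 (SE 0.05) with EGF and of 0.49 (SE 0.04, edgeR adjusted p = 3.5e-11) with HRG. At 24 h vehicle was at 116 and 109.6 CPM and HRG at 102 and 98.6 CPM, a fall by 0.19 (SE 0.05, edgeR adjusted p = 0.0015). This was the only downward call of the 10 genes with a ligand, and without vehicle replicate 1 the value was -0.14 with an edgeR adjusted p of 0.066. ANXA2 rose in the same groups at 12 h, by a log2 of 0.55 (SE 0.04) in HRG-BT474, 0.33 (SE 0.04) in EGF-BT474 and 0.48 (SE 0.08) in EGF-BT474R.

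S100A14, an epithelial member, rose in every late comparison tested. At 12 h in BT474 it was at 340.1 and 338 CPM with vehicle, 559.6 and 548 CPM with EGF and 689 and 682 CPM with HRG. The log2 rise was 0.99 with HRG (SE 0.03, edgeR adjusted p = 4.1e-23) and 0.69 with EGF (SE 0.03, edgeR adjusted p = 4.8e-18), and at 24 h 0.62 and 0.54. In BT474R it was at 392 and 419.7 CPM with vehicle at 12 h, 581 and 592 CPM with EGF and 519 and 509.7 CPM with HRG, so that EGF raised it by 0.53 (SE 0.05) at 12 h and by 0.40 (SE 0.05) at 24 h.

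**Figure D5:**
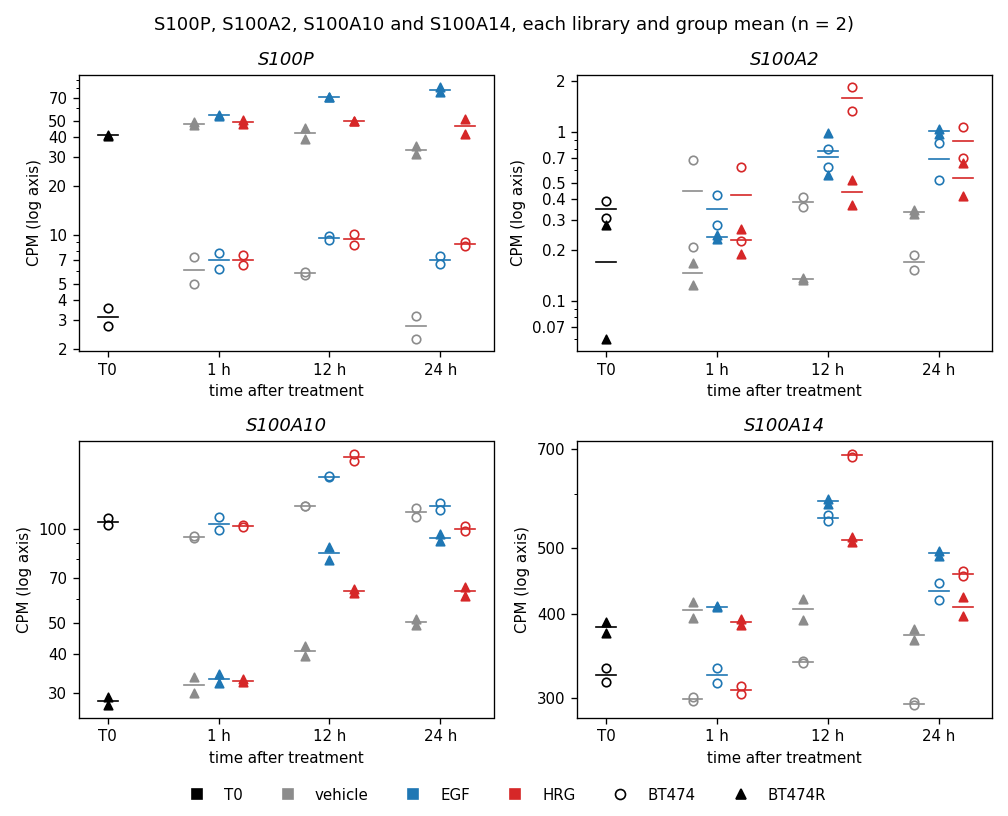
CPM (log axis) of S100P, S100A2, S100A10 and S100A14 in each library by time point, with open circles for BT474, filled triangles for BT474R, colours for T0, vehicle, EGF and HRG, and short lines for the mean of 2 libraries. S100P separates the lines at every time point. S100A10 in BT474R rises to 91.4 and 96.2 CPM with EGF at 24 h, and S100A14 in BT474 peaks at 689 and 682 CPM with HRG at 12 h.

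S100A11, S100A6 and S100A4 had changes of at most 0.53 on the log2 scale. S100A11, which pairs with annexin A1, was at 149 and 156 CPM with vehicle and 220.1 and 222 CPM with EGF in BT474R at 24 h, a log2 rise of 0.53 (SE 0.05, edgeR adjusted p = 2.0e-07). It rose in all 4 late comparisons of EGF, by 0.17 to 0.53, and by 0.38 and 0.22 with HRG in BT474. S100A6 rose in EGF-BT474R by 0.30 (SE 0.05) at 12 h and 0.28 (SE 0.05) at 24 h and in HRG-BT474 by 0.21 (SE 0.05) at 12 h. S100A4 was called in 1 of the 9 ligand comparisons outside HRG-BT474R, EGF-BT474R at 12 h, where libraries were at 80.8 and 78.0 CPM against 66.6 and 69.4 CPM with vehicle (0.22, SE 0.06, edgeR adjusted p = 0.019). That call was lost without vehicle replicate 1 or EGF replicate 1 and with both lines in 1 fit (adjusted p = 0.062). The S100A11 call in EGF-BT474 at 24 h was lost in a fit of only the libraries compared (adjusted p = 0.059). In the 12 h and 24 h comparisons of BT474 the 95% interval of the S100A4 change reached no further than from -0.35 to 0.33.

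A call in 1 line and not in the other does not show a difference between lines, so the ligand effects were compared in a fit of all 40 libraries. At 1 h no member was called for EGF (0.138% of 24641 genes called) or HRG (0.544%) by edgeR or DESeq2, with 1 and 2 members at an unadjusted p under 0.05 by edgeR (5.92% and 6.55% of all genes) and 0 and 1 by DESeq2. For EGF, leaving S100A9 aside, 1 member was called at 12 h, against 1.96%, and 2 at 24 h, against 4.01%. S100A10 responded more in BT474R at both times (log2 0.73, SE 0.08, and 0.83, SE 0.08, edgeR adjusted p = 4.5e-09). At 24 h S100A11 responded more by 0.36 (SE 0.07). For S100A9 the difference was 2.10 (SE 0.40) at 24 h, as a description.

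For HRG the lines differed in the other direction for 3 members. Leaving S100A9 aside, 1 member was called at 12 h, beside 4.07% of all genes, and 4 at 24 h, beside 3.33%, and the BT474R libraries in this comparison are those that chose the set. HRG acted less in BT474R on S100A14 (-0.67, SE 0.06, at 12 h and -0.50, SE 0.06, at 24 h), on S100A8 (-2.16, SE 0.43, at 24 h) and on S100P (-1.18, SE 0.20, edgeR adjusted p = 0.00022, at 24 h), and more on S100A10 (0.50, SE 0.08, at 24 h). For S100A9 the difference was 0.21 at 24 h. Without BT474 vehicle 24 h replicate 2 the S100A8 value was -1.82 with an edgeR adjusted p of 0.054.

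HRG and EGF were also set against each other within a line. Per the paper, EGF was given at a higher mass concentration than HRG, so ligand and dose cannot be told apart here. In BT474 at 12 h 2 members were called, against 2.17% of genes, with S100A14 higher with HRG by 0.29 (SE 0.03) and S100A10 by 0.19 (SE 0.04), and at 24 h only S100A10, against 0.768%, which was lower with HRG (-0.25, SE 0.05). S100P differed by 0.31 at 24 h (95% interval from 0.04 to 0.58, not called). In BT474R the called members were all lower with HRG than with EGF. Leaving out S100A9, these were S100A10 (-0.41), S100A14 (-0.20) and S100P (-0.52) at 12 h, against 1.42% of genes, and S100A10 (-0.55, SE 0.07), S100A11 (-0.27, SE 0.05), S100A14 (-0.25, SE 0.05) and S100P (-0.73, SE 0.08, edgeR adjusted p = 4.4e-06) at 24 h, against 5.18%. S100A9 was lower with HRG by 0.61 and 1.21, as a description. The S100A10 calls in BT474 were lost with both lines in 1 fit (adjusted p = 0.054 at 12 h and 0.060 at 24 h), that of 24 h also in a fit of only the libraries compared (adjusted p = 0.29). The S100A10 call of 12 h was lost in BT474 without HRG replicate 2 or either EGF replicate and in BT474R without EGF replicate 1, and that of S100A14 in BT474R at 12 h without any of its 4 libraries. Fitted on only the libraries compared, 0 of 25183 genes were called in BT474R at 24 h. The 24 h calls given above for BT474R were thus all lost (edgeR adjusted p from 0.183 to 0.485).

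The controls moved as well. In BT474R from T0 to 24 h of vehicle, 4 of the 9 members other than S100A9 were called, against 13.7% of genes. S100A8 fell from 4.02 and 2.76 CPM to 1.422 and 1.505 CPM (-1.18, SE 0.23, edgeR adjusted p = 0.0013) and S100P by 0.29 (SE 0.09). S100A9 was at 6.12 and 5.38 CPM at T0 and 2.31 and 2.82 CPM at 24 h of vehicle (-1.16, SE 0.16), as a description. S100A10 rose from 29.2 and 27.5 CPM to 49.6 and 51.6 CPM (0.85, SE 0.08) and S100A4 by 0.37 (SE 0.06). The S100A9 libraries given EGF for 24 h were thus above T0 as well as above vehicle, and those given HRG were above T0 by a narrower margin. The S100P call was lost without either T0 replicate or vehicle replicate 1.

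In BT474 4 members were called lower at 24 h of vehicle than at T0 and none higher, where 11.4% of genes were called in either direction. S100A4 fell from 19.99 and 19.95 CPM to 14.4 and 9.91 CPM (-0.73, SE 0.12, edgeR adjusted p = 1.8e-05). S100A6 (-0.14), S100A11 (-0.15) and S100A14 (-0.14) differed by far less. Without vehicle replicate 2 the S100A4 value was -0.45, that of S100A6 was lost in 4 alternatives (edgeR or DESeq2 adjusted p from 0.052 to 0.10) and without any of its 4 libraries, and was -0.09 without T0 replicate 1 or vehicle replicate 2, that of S100A11 was lost without T0 replicate 1 (-0.08) or either vehicle replicate, and that of S100A14 without T0 replicate 1 or vehicle replicate 2.

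Other genes of the family, its partners and its genomic surroundings gave a mixed picture. S100A16, a broadly expressed member next to S100A14 in the order along chromosome 1, rose by 0.96 (SE 0.04) in HRG-BT474 at 12 h, from a mean of 389.6 CPM to 772 CPM. It also rose in the other 5 comparisons of 12 h and 24 h outside HRG-BT474R, and S100A13 rose by 0.25 (SE 0.06) in EGF-BT474 at 12 h. S100A1 fell by 0.24 (SE 0.05) in EGF-BT474R at 24 h. Of 11 other S100 genes, 5 were tested in BT474 and 7 in BT474R, with 2 called higher in HRG-BT474 at 12 h, where 13.3% of all genes were, and 1 higher and 1 lower in EGF-BT474R at 24 h, where 9.95% and 7.37% were.

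Among 19 receptors and partners of S100 proteins, 8 rose and 3 fell in HRG-BT474 at 12 h, against 13.3% and 12.5% of all genes, and of the 18 tested in BT474R 6 rose and 4 fell with EGF at 24 h, against 9.95% and 7.37%. ANXA1, the S100A11 partner, rose by 1.81 (SE 0.44) in EGF-BT474R at 12 h from a mean of 0.257 CPM to 0.899 CPM. EZR, which encodes ezrin, rose by 0.70 (SE 0.05) in EGF-BT474R at 24 h, from 189.7 to 309 CPM, and MYH9, a myosin heavy chain bound by S100A4, by 0.58 (SE 0.03) in HRG-BT474 at 12 h. MCAM, a surface receptor of S100A8 and S100A9, rose by 0.79 (SE 0.21) in HRG-BT474 at 12 h. TLR4 had a mean of 1.57 CPM at T0 in BT474R and 0.131 CPM in BT474, and AGER, which encodes RAGE, 4.19 and 3.58 CPM.

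Of 21 other genes of the epidermal differentiation cluster, 6 were tested in BT474 and 5 in BT474R. None was called at 12 h or 24 h in BT474R, where from 1.89% to 9.95% of all genes were called higher. In BT474 IVL, which encodes involucrin, rose in all 4 comparisons of these times, by 1.502 to 2.639, from vehicle means of 0.392 CPM at 12 h and 0.184 CPM at 24 h. There from 9.04% to 13.3% of all genes were called higher. In BT474R IVL had at most 5 reads in any library and 0 in 9 of 20. Of 7 genes of this list tested between the lines, none was called for the effect of either ligand. SPRR1A rose in HRG-BT474 at 12 h and EGF-BT474 at 24 h, and FLG fell by 3.03 (SE 0.69) in EGF-BT474 at 24 h. These 3 names were chosen after their values were seen. Of 14 epithelial defence genes, 8 were tested in each line, with 1 called higher and 1 lower in HRG-BT474 at 12 h (13.3% and 12.5% of all genes), 3 higher at 24 h (12.5%), and 1 higher in EGF-BT474R at 24 h (9.95%). LTF, which encodes lactoferrin, rose by 1.16 (SE 0.21) in HRG-BT474 at 12 h, and PI3, which encodes elafin, fell by 0.70 (SE 0.25).

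Genes whose pattern was most like S100A9 and S100P were ranked by Pearson r of log2 CPM over the 20 group means, each line centred on its own mean, among 15066 other genes. For S100A9 they were ECM1 (r = 0.94), XRCC5 (0.92), SLC15A3 (0.92), MARS1 (0.91) and HNRNPD (0.91). For S100P they were NAV2 (0.92), KIAA1671 (0.91), GRAMD2A (0.91), UAP1 (0.90) and LIPG (0.90). Of the other 9 members, S100A2 had the highest r with S100A9 (0.71) and S100A7, with few reads, with S100P (0.72), and S100A8 had 0.62 with S100A9. The 20 points share libraries and depth across genes, and the r values are descriptions.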

How the data were processed

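Gene expression was measured by bulk mRNA-seq in BT474 and BT474R, 20 groups of 2 libraries. The authors trimmed reads and assigned them to genes, and deposited raw counts per gene. Per the labels the submitters' processing notes name FastQC, MultiQC, Trim Galore 0.6.6, featureCounts and GRCh38.p13, and the kit was a Kapa mRNA HyperPrep. Strand setting of the counting was not given in the sources used here.

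Samples were grouped by their labels. From the counts, genes with at least 1 count in 50% of libraries were kept (25146 in BT474, 24287 in BT474R, 24641 in both), scaled by TMM and tested with edgeR 4.0.16 in R 4.3.3 (glmQLFit and glmQLFTest), with p-values adjusted by Benjamini-Hochberg across every gene in the fit and called under 0.05. Ligand and vehicle comparisons were fitted on the 20 libraries of a line, and T0 and effects between lines on all 40. CPM are relative to library sizes multiplied by the TMM factors of the fit over all libraries. Intervals are 95%, from 1.96 times the SE. Totals were 16794594 to 33387936, and limits of 3 counts cover counting error only. Alternatives were DESeq2 1.42.0, its size factors, other filters, only the libraries compared, both lines in 1 fit, a replicate block and leaving out each library.

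The scripts were tested on simulated data. The members and the gene lists were chosen with earlier results of these data known. Genes of a list were named, at most 4 a list, by the largest called change in any ligand comparison among genes with a mean of at least 1 CPM over all libraries. ANXA2, AGER and TLR4 fall outside that rule and were named as partners of members, with their values seen. The lists were other S100 genes, receptors and partners, the epidermal differentiation cluster, defence genes, and luminal, basal, myeloid and fibroblast markers. Of the 6 basal markers 3 in BT474 and 2 in BT474R exceeded 1 CPM, and of the 5 fibroblast markers 1 in each line. Exon lengths came from GENCODE, and promoters from RefSeq.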

Additional observations from a re-analysis of the deposited data

Results flagged for a closer look

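Ligand effects that differed between the lines, by the interaction term of the fit over all 40 libraries, were picked out for a closer look. All are log2 values of BT474R minus BT474, and none was fitted on only the libraries compared. For EGF they were S100A10 at 12 h (0.73) and 24 h (0.83) and S100A11 at 24 h (0.36). S100A9 was left out, since its BT474R vehicle libraries served in choosing it. For HRG they were S100A14 at 12 h (-0.67) and 24 h (-0.50), S100A8 at 24 h (-2.16), S100P at 24 h (-1.18) and S100A10 at 24 h (0.50). The HRG values share the BT474R libraries that chose the set. S100P with EGF, in contrast, had a difference of 0.01 at 12 h (95% interval from -0.34 to 0.37) and -0.11 at 24 h (from -0.51 to 0.30), neither called.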

How the results depend on the processing

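Of 73 tested calls among the 10 genes, 58 held in every alternative run for them (5 to 7 each) and 15 were lost in at least 1; 20 were lost without at least 1 library, and none reversed. Calls in HRG-BT474R, counted with S100A9 as a description, went from 8 to 4 when fitted on only the libraries compared. Those of HRG against EGF went from 3 to 1 in BT474 with both lines in 1 fit. In BT474R, S100A9 left out, they went from 7 to 3 with only the libraries compared. With only the libraries compared, 0 of 25322 genes were called in HRG-BT474R at 24 h. In HRG against EGF in BT474R at 24 h it was 0 of 25183, so these losses at 24 h were of all genes. The cause was not tested. The ligand effects between lines were not fitted on only the libraries compared, so their calls did not face that setting. Leaving out 1 library gave 5 (vehicle 24 h replicate 1) to 10 calls in HRG-BT474R and 1 to 3, against 4, for vehicle at 24 h against T0 in BT474. S100A8, EGF-BT474R 12 h, became called in 5 alternatives (adjusted p from 0.0179 to 0.048). With a replicate block all 101 values kept their call. The labels give same-numbered samples nothing in common but the number. Their deviations from the group means correlated from -0.093 to 0.385, over 0.1 in 5 of 19 comparisons, all of them of 24 h groups. Leaving out libraries was not run for the 1 h effects between lines, and the alternative on copied gene names gives no value, since no member has a second row. Low reads limit S100A2, S100A7 and, in BT474, S100A8 and S100A9.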
